A study of Mus musculus with 9 samples.

Results

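Interleukins 4, 13, 15 and 7 signal through cytokine receptors that recruit Janus kinase 1 (JAK1), and this account gives the RNA levels of 6 genes of that system in mammary tumour cell lines with and without JAK1. The genes are the receptor chains Il4ra, Il13ra1, Il2rg and Il15ra and the cytokines Il15 and Il7. They were taken by gene symbol from the table of all 9 libraries, where each symbol had 1 row, so they are 6 of the 24342 genes used.

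The cells were lines from mammary tumours of FVB/N mice carrying MMTV-neu, a transgene with the neu (Erbb2) oncogene under a viral promoter active in mammary epithelium, so the oncogene is shared by knockout and wild-type lines. There were 4 libraries labelled Jak1 knockout, of lines 45555, 47298, 45566B and 46295, and 5 labelled Jak1 wild type, of lines 45555, 47298, 45566B, 33373 and 33377. In the 3 lines present in both states the knockout library carries Cre in its title, and these lines were kept in puromycin. All lines grew attached in medium with serum, insulin, EGF and hydrocortisone, with no added interleukin or interferon in the labels. The sources used here do not give the promoter of Cre, the age of the mice or whether a line is 1 clone. Each line and state has 1 library, so p-values measure only the spread between these libraries.

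IL-4 binds the IL-4 receptor alpha chain (Il4ra), which then pairs with the common gamma chain (Il2rg) in the type I receptor of blood cells or with Il13ra1 in the type II receptor of epithelial cells and fibroblasts. IL-13 uses the type II receptor. In both, JAK1 sits on Il4ra, and the transcription factor STAT6 is the main target. IL-15 is held on the cell surface by Il15ra and shown to neighbouring lymphocytes, which read it through Il2rb and Il2rg, and Il15 and Il15ra are both known as interferon-inducible genes. IL-7 is a survival cytokine that stromal and epithelial cells supply to lymphocytes, which read it through Il7r and Il2rg.

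The values are FPKM, fragments scaled to transcript length and library size, so levels can be compared between genes. The number of fragments behind a value is unknown. A library summed to 567403 to 721751 FPKM, and its depth, read from the steps of low values, was 0.416 to 0.767 of that of 45566B wild type, the deepest. Jak1 itself was at 74.4, 27.5, 14.2 and 22.97 FPKM in knockout 45555, 47298, 45566B and 46295, against 86.7, 63.1, 16.1, 19.4 and 54.6 FPKM in wild-type 45555, 47298, 45566B, 33373 and 33377. Jak1 was thus lower in each of the 3 pairs, but a value over the whole gene does not show whether part of it was deleted. The lines differed in their epithelial state. The 10 luminal epithelial markers, Epcam and Krt8 among them, summed to 7.50, 415, 3154 and 3164 FPKM in knockout 45555, 47298, 45566B and 46295, and to 7.18, 100.1, 3141, 2625 and 163 FPKM in wild-type 45555, 47298, 45566B, 33373 and 33377. The 10 fibroblast and mesenchymal markers ran largely the other way, at 7605, 2576, 167 and 116 FPKM in the same knockout libraries and 8847, 9060, 84.3, 1478 and 4925 FPKM in the same wild-type libraries. Line 45555 thus held little of the luminal markers in both states, and Epcam was under 1 FPKM in all 4 libraries of 45555 and 47298.

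Of the 6 genes, Il15ra was lower in knockout in each of the 3 lines, and its promoter is therefore shown here. RefSeq (GRCm38.p6) gives Il15ra a pair of start sites on chromosome 2, plus strand, each with a window of 300 bases, 250 before the start and 50 after it. Capitals mark the letters GAAANNGAA or their reverse complement, the core of the interferon-stimulated response element. The windows span chr2:11705043-11705342 and chr2:11705462-11705761.

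Il15ra upstream start: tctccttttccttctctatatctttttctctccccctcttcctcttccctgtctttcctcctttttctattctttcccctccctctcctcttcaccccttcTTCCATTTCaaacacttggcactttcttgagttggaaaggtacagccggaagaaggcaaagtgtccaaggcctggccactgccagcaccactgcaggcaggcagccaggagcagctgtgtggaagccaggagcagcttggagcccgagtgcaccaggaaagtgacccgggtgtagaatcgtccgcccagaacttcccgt

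Il15ra downstream start: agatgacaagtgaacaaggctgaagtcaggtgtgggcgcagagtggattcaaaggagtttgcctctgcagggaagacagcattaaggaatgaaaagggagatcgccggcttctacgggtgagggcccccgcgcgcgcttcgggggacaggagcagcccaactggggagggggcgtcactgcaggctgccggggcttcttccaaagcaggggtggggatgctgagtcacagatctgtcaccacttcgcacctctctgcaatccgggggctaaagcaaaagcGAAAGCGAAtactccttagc

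The core lies on the minus strand in the upstream window, its match beginning 149 bases before the start, and on the plus strand in the downstream window, beginning 30 bases after it. Of the 27025 genes with a window, 9.76% held the core in at least 1 window (both strands searched). In the list of interferon-inducible genes 12 of the 22 with a window held it, among them Ifit1, Isg15 and Gbp2. Neither TTCNNNGAA, the letters of the gamma-activated site (9.55% of genes), nor a TTC and a GAA with 4 bases between, the spacing STAT6 prefers (8.01% of genes), was in a window of the 4 members found there. The windows of Il4ra, Il13ra1 and Il2rg held none of the 3 patterns. The capitals do not overlap a match of another pattern, and a match describes letters only.

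**Figure D1:**
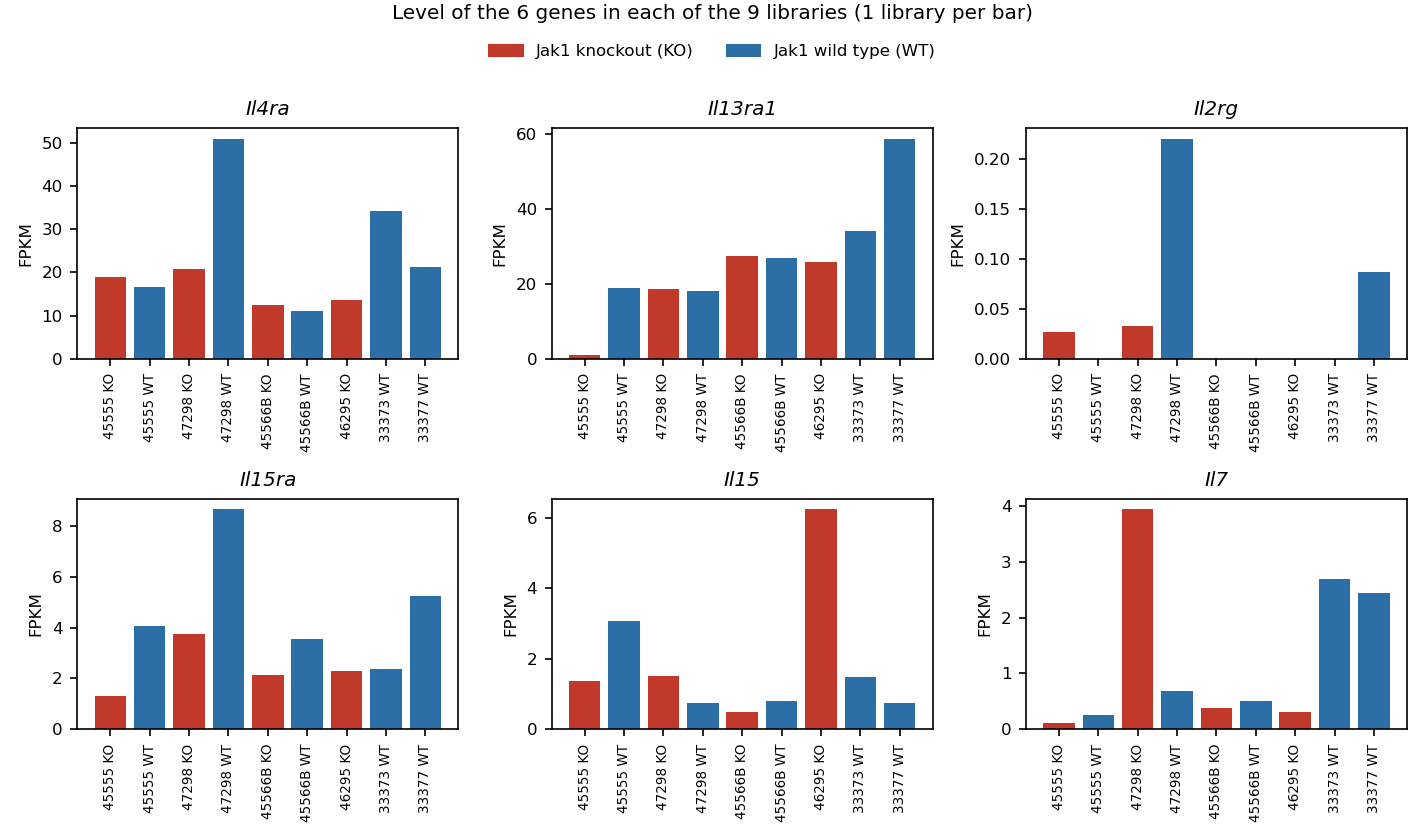
Level of each gene in FPKM (linear axis from 0, a different scale in each panel) in the 9 libraries, with 1 bar per library, red for Jak1 knockout and blue for wild type, knockout left of wild type within a line. Il13ra1 is almost absent from 45555 knockout (1.05 FPKM), Il7 is highest in 47298 knockout (3.94 FPKM), and Il2rg stays below 0.3 FPKM in every library.

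Il4ra, the chain that binds IL-4, was above 10 FPKM in every library. Its level was 18.8, 20.8, 12.5 and 13.6 FPKM in knockout 45555, 47298, 45566B and 46295, against 16.5, 50.8, 11.1, 34.3 and 21.2 FPKM in wild-type 45555, 47298, 45566B, 33373 and 33377. The groups averaged 16.4 ± 4.02 FPKM in knockout (SD, n = 4) and 26.8 ± 16.0 FPKM in wild type (SD, n = 5), and they overlap: the lowest value of all was 45566B wild type. Within its own library Il4ra stood above 42.6 to 84.5% of the genes at 1 FPKM or more. The gene lies on chromosome 7 from 125552120 to 125579474, plus strand (mm10, GENCODE vM21).

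Line 47298 carried most of the difference in Il4ra. On the log2(FPKM + 1) scale, on which all differences below are given, knockout minus wild type was -1.25 in 47298, against 0.18 in 45555 and 0.16 in 45566B. In 47298, 11.0% of the 12063 genes tested were more than 2-fold lower. Fitted over the 3 pairs with the line as a block, Il4ra differed by -0.31 (SE 0.36, 95% interval -1.29 to 0.67; limma, Benjamini-Hochberg adjusted p = 0.812). Over all 9 libraries it was -0.51 (SE 0.41; limma, adjusted p = 1.000). Without line 47298 the 3-pair value was 0.17, so its sign rests on that line. In 47298 the mesenchymal markers summed to 2576 FPKM in knockout and 9060 FPKM in wild type. Of the 9 tested, 5 were over 2-fold lower and 1 over 2-fold higher. The higher one was Dcn, at 27.3 FPKM in knockout and 12.2 FPKM in wild type, while Fn1 was near equal (1031.5 and 1074.2 FPKM). Col1a1, a collagen chain of fibroblasts, was at 65.5 FPKM in knockout and 1728 FPKM in wild type. The part of this difference in cell state in the Il4ra value was not tested. In these bulk libraries fewer cells of a type and less RNA per cell cannot be told apart.

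Il13ra1, the partner of Il4ra in the type II receptor and the chain that binds IL-13, showed the widest single difference among the members. It was at 1.05 FPKM in 45555 knockout, 18.7 in 47298 knockout, 27.4 in 45566B knockout and 25.9 in 46295 knockout. The wild-type libraries held 18.9 FPKM (45555), 18.2 (47298), 26.8 (45566B), 34.0 (33373) and 58.6 (33377). The other 8 libraries thus lay between 18.2 and 58.6 FPKM, and 45555 knockout alone was near 1 FPKM, 18.0-fold below its wild-type partner. The averages were 18.3 ± 12.1 FPKM in knockout (SD, n = 4) and 31.3 ± 16.6 FPKM in wild type (SD, n = 5).

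The difference within 45555 was -3.28, and 58 of the 12063 genes tested had a lower value in that line. In 47298 and 45566B the differences were 0.04 and 0.03. In 45555, 6.68% of genes were more than 2-fold lower, and in 45566B 2.17%. Fitted over the 3 pairs Il13ra1 differed by -1.07 (SE 0.78, 95% interval -3.21 to 1.07; limma, adjusted p = 0.762), and over the 9 libraries by -1.15 (SE 0.77; limma, adjusted p = 1.000). Without line 45555 the 3-pair value was 0.04, and without its knockout library the 9-library value was -0.26. Inside 45555 the luminal and mesenchymal sums were 7.50 and 7605 FPKM in knockout, against 7.18 and 8847 FPKM in wild type, but 4 of the 9 tested mesenchymal markers were over 2-fold lower. Acta2, the smooth muscle actin gene, was at 1296 FPKM in 45555 knockout and 178 FPKM in 45555 wild type. The part of these differences in the Il13ra1 value was not tested.

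Il13ra1 lies on chromosome X from 36112110 to 36171259, plus strand. Of the 5 coding genes on either side, 4 reached 1 FPKM in some library. Dock11, which ends 35548 bases before Il13ra1, differed by -0.47 in 45555, Lonrf3 by 0.07, Pgrmc1, a membrane progesterone-receptor component, by 0.14 and Akap17b by -0.10. The lowest of these neighbours thus stood at -0.47, against -3.28 for Il13ra1. The ratio of Il4ra to Il13ra1 was 17.9 in 45555 knockout and between 0.36 and 2.80 in the other 8 libraries.

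**Figure D2:**
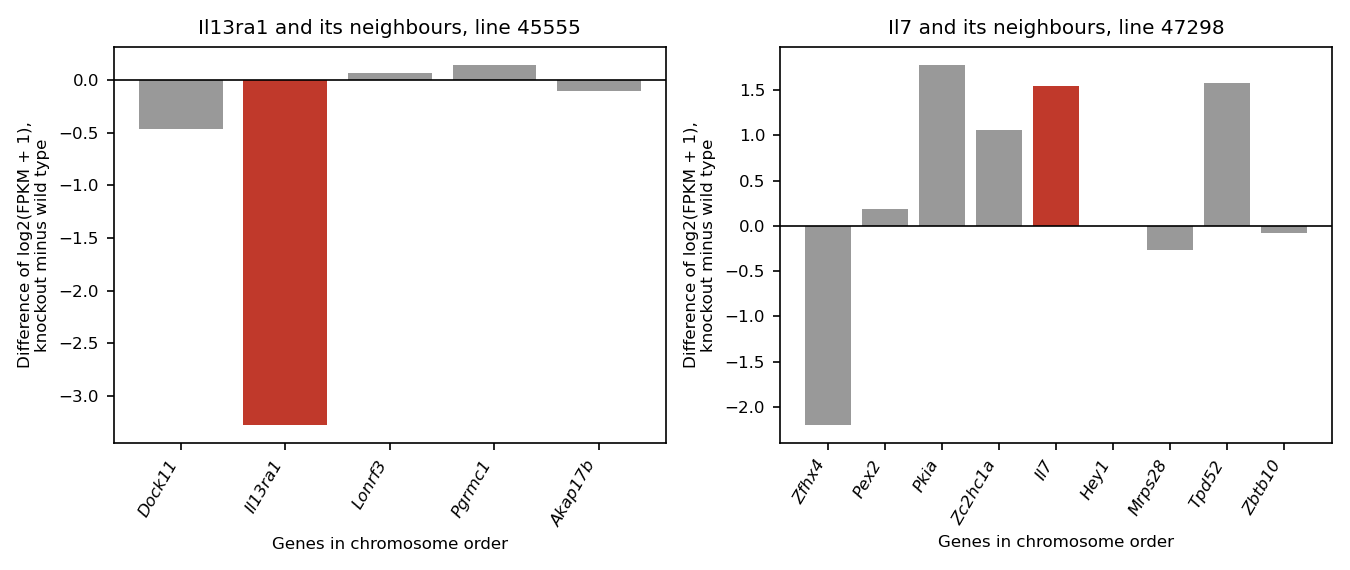
Differences in log2(FPKM + 1), knockout minus wild type, for Il13ra1 in line 45555 (left) and Il7 in line 47298 (right), each in red, and for those of the 5 coding genes on either side that reached 1 FPKM in some library (grey), in chromosome order and not to distance. Il13ra1 stands at -3.28 with its neighbours between -0.47 and 0.14, while Il7 (1.55) has neighbours from -2.20 (Zfhx4) to 1.78 (Pkia).

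Il2rg, the common gamma chain that completes the receptors for IL-4 in blood cells and for IL-2, IL-7, IL-9, IL-15 and IL-21, was close to absent. It was listed at 0.0269 FPKM in 45555 knockout, 0.0331 in 47298 knockout and 0 in 45566B and 46295 knockout. In wild type it was at 0.22 FPKM in 47298 and 0.0869 in 33377 and listed at 0 in 45555, 45566B and 33373. Multiplied by relative depth, the 4 values above 0 stood at 1, 1.08, 7.99 and 4 times the smallest (45555 knockout, 47298 knockout, 47298 wild type and 33377), so none was more than 8 times the smallest step seen. Il2rg did not reach the mean of 1 FPKM needed for a test and no fold is given for it. It lies on chromosome X from 101264378 to 101268255, minus strand, and overlaps the same-strand gene Gm20489. The immune marker list was similarly low, with 12 of 14 genes under 1 FPKM in every library, Ptprc, Csf1r and Itgam among them, and Cd3e, Cd3g and Nkg7 at 0 in all 9. The immune sum of 106 FPKM in 46295 knockout was almost all Cd68 (106 FPKM), a lysosomal protein.

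Il15ra, which presents IL-15, was the member with the most regular difference. It was at 1.31, 3.74 and 2.15 FPKM in knockout 45555, 47298 and 45566B, against 4.05, 8.65 and 3.54 FPKM in their wild-type partners. The unpaired libraries held 2.29 FPKM in 46295 knockout, against 2.37 in 33373 and 5.24 in 33377. Knockout was lower in 3 of 3 pairs, yet the groups of 9 overlap, since 47298 knockout lay above both 45566B wild type and 33373.

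Knockout was 3.08-fold lower in 45555, 2.31-fold lower in 47298 and 1.65-fold lower in 45566B as FPKM ratios, or -1.12, -1.03 and -0.53 on the log2(FPKM + 1) scale. Over the 3 pairs the difference was -0.89 (SE 0.22, 95% interval -1.49 to -0.29, unadjusted p = 0.0140; limma, adjusted p = 0.762). Il15ra was thus the 1 of 4 tested members lower at an unadjusted p under 0.05, where 1.85% of all genes were lower and 1.51% higher, and none passed over all genes. It was also the 1 of 4 lower in all 3 pairs, as were 13.3% of genes, while no member was higher in all 3 (14.3% of genes). Over 9 libraries the value was -0.73 (SE 0.34, unadjusted p = 0.0635; limma, adjusted p = 1.000), and the averages were 2.37 ± 1.01 FPKM in knockout (SD, n = 4) and 4.77 ± 2.40 FPKM in wild type (SD, n = 5).

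Most interferon-inducible genes were also lower in the pairs, with the lowest median in 45566B, where Il15ra differed least. Of 28 listed genes 26 were tested and all 26 were lower on average over the pairs, 20 of them in each pair and 15 at an unadjusted p under 0.05, with a median of -1.79 against -0.01 over all genes. Their median difference was -0.98 in 45555, -1.17 in 47298 and -3.20 in 45566B. In 47298 only 20 of the 26 were lower, with values from -2.33 to 1.63. There 15 were over 2-fold lower in knockout (11.0% of all genes) and 3 over 2-fold higher (8.49%). These 3 were the class I histocompatibility genes H2-K1 (1.63) and H2-D1 (1.29) and the GTPase gene Irgm1 (1.23). Il15ra (-1.12, -1.03 and -0.53) stood inside the range of the 26 in 45555 and 47298, with 12 and 15 of them below it. The log2(FPKM + 1) scale understates changes of low genes, so the count of 12 in 45555 depends on the scale. Mx2, for example, was at 0.0177 FPKM in 45555 knockout and 0.639 FPKM in 45555 wild type, yet differed by only -0.69. In 45566B all 26 lay below Il15ra, with values from -5.57 to -0.72. Isg15, a ubiquitin-like modifier, was at 22.4 FPKM in 45566B knockout and 287 FPKM in 45566B wild type. Its difference over the pairs was -2.63 (SE 0.38; limma, adjusted p = 0.762). Ifit1, which binds viral RNA, differed by -1.66 (SE 0.21) and Gbp2, a guanylate-binding protein, by -1.79 (SE 0.26), each with the same adjusted p.

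**Figure D3:**
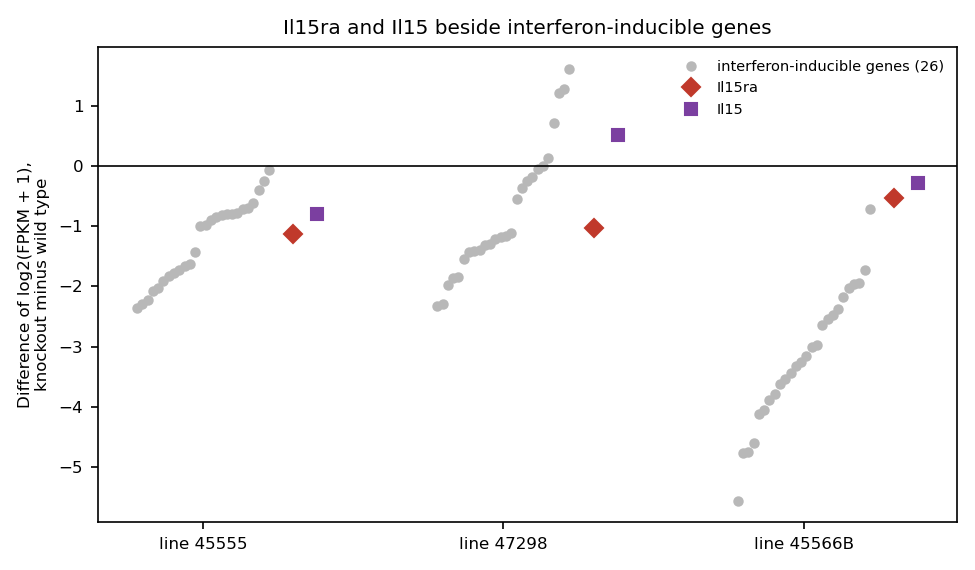
Difference in log2(FPKM + 1), knockout minus wild type, for each of the 26 tested interferon-inducible genes (grey, sorted within a line) and for Il15ra (red diamonds) and Il15 (purple squares) in each line. Il15ra lies among the interferon-inducible genes in 45555 and 47298 and above all of them in 45566B. The scale understates changes of low genes.

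Il15, the ligand presented by Il15ra, differed in direction between the lines. It was at 1.36, 1.51, 0.481 and 6.23 FPKM in knockout 45555, 47298, 45566B and 46295, against 3.08, 0.749, 0.787, 1.48 and 0.740 FPKM in wild-type 45555, 47298, 45566B, 33373 and 33377. Knockout was lower in 45555 and 45566B and higher in 47298, and the highest value of all was that of 46295 knockout. The averages were 2.40 ± 2.60 FPKM in knockout (SD, n = 4) and 1.37 ± 1.01 FPKM in wild type (SD, n = 5). The differences were -0.79, 0.52 and -0.27 in 45555, 47298 and 45566B.

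Fitted over the 3 pairs Il15 differed by -0.18 (SE 0.34, 95% interval -1.12 to 0.76; limma, adjusted p = 0.885), and by -0.53 without line 47298. Over the 9 libraries it was 0.34 (SE 0.49; limma, adjusted p = 1.000), and -0.11 without 46295 knockout, so the positive sign rests on that library. The ratio of Il15ra to Il15 was 0.97, 2.48, 4.46 and 0.37 in knockout 45555, 47298, 45566B and 46295, against 1.31, 11.5, 4.50, 1.61 and 7.08 in wild-type 45555, 47298, 45566B, 33373 and 33377. The value of Il15 exceeded that of Il15ra only in 46295 knockout and, by little, in 45555 knockout (1.36 against 1.31 FPKM). Il15 lies on chromosome 8 from 82331632 to 82403222, minus strand, and Il15ra on chromosome 2 from 11705290 to 11734317, 12097 bases after Il2ra, its close relative, which stayed at or below 0.0532 FPKM.

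Il7 was low in most libraries and stood out in line 47298. It was at 0.104, 3.94, 0.389 and 0.309 FPKM in knockout 45555, 47298, 45566B and 46295, against 0.254, 0.689, 0.503, 2.68 and 2.44 FPKM in wild-type 45555, 47298, 45566B, 33373 and 33377. Only 47298 knockout, 33373 and 33377 exceeded 1 FPKM, and the averages were 1.18 ± 1.84 FPKM in knockout (SD, n = 4) and 1.31 ± 1.15 FPKM in wild type (SD, n = 5). Within 47298 the knockout value was 5.71-fold the wild-type value, a difference of 1.55, while it was -0.18 in 45555 and -0.11 in 45566B.

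Genes more than 2-fold higher made up 8.49% in 47298, 3.2% in 45555 and 0.854% in 45566B. With a mean of 0.979 FPKM over the 6 paired libraries Il7 missed the filter, and the 3-pair fit without a filter gave 0.42 (SE 0.43; limma, adjusted p = 0.806). Over the 9 libraries the difference was -0.24 (SE 0.55, 95% interval -1.50 to 1.02; limma, adjusted p = 1.000). It was 0.17 with the line as a random replicate block, -0.70 with a pseudocount of 0.1, and between -0.43 (without 45555 wild type) and -0.01 (without 45555 knockout) when a library was left out, except that without 47298 knockout Il7 missed the filter. Il7 lies on chromosome 3 from 7569994 to 7613760, minus strand, and is overlapped by Gm16685 on the plus strand, as Il4ra is by Gm44876 on the minus strand. The sources used here do not say whether strand was kept, so reads of such overlapping genes cannot be told apart. Zc2hc1a, 16158 bases away, was at 44.2 FPKM in 47298 knockout and 20.7 FPKM in 47298 wild type, and Pkia, the next gene and a protein kinase A inhibitor, at 17.3 FPKM in 47298 knockout and 4.34 FPKM in 47298 wild type. Of the other neighbours in that line, Tpd52 differed by 1.58, Pex2 by 0.19, Zbtb10 by -0.08, Mrps28 by -0.27 and Zfhx4 by -2.20. In the same pair luminal markers summed to 415 FPKM in knockout and 100.1 FPKM in wild type, most of it Krt18 (250.3 FPKM in knockout and 52.7 FPKM in wild type) and Krt8 (157 FPKM in knockout and 38.5 FPKM in wild type). Of the 10 markers 3 were over 2-fold higher and 1, Krt19, over 2-fold lower (0.307 FPKM in knockout and 5.97 FPKM in wild type), with a median difference of 0.17. What these have to do with Il7 was not tested.

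**Figure D4:**
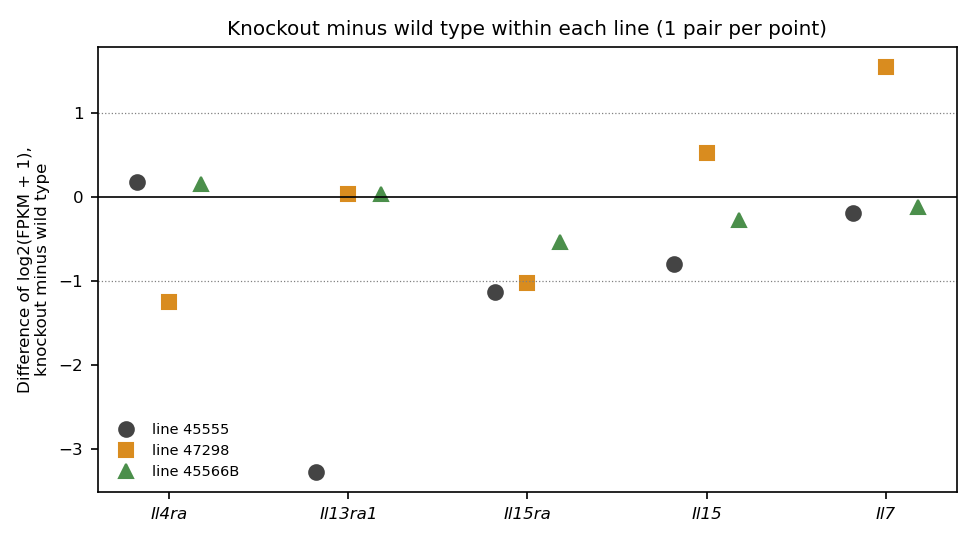
Difference in log2(FPKM + 1), knockout minus wild type, for 5 members in lines 45555, 47298 and 45566B, with 1 pair per point and dotted lines at 2-fold. Il15ra is below 0 in all 3 lines, while Il13ra1 (45555), Il4ra and Il7 (47298) each have 1 line past 2-fold.

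Counted together, 4 members passed the filter of the 3-pair fit and 5 that of the 9-library fit. The adjusted threshold of 0.05 was reached by none, and by 0% of all genes in either fit (405 of 12063 genes had an unadjusted p under 0.05 in the 3-pair fit and 144 of 12198 in the 9-library fit). In the 9-library fit 0.959% of genes were lower and 0.221% higher at an unadjusted p under 0.05, with none of the 5 members among them. No member had all 4 knockout libraries below the 5 wild-type libraries (0.303% of genes) or above them (0.139%). On the log2(FPKM + 1) scale, 2 of the 4 tested members were more than 2-fold lower in 45555 (6.68% of genes), 2 of the 4 in 47298 (11.0%) and none in 45566B (2.17%). As a plain FPKM ratio Il15 in 45555 was also past that fold, 2.27-fold lower.

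The partners of these genes fell into an expressed and a silent set. Besides the members, the family list of shared-chain cytokines and receptors held 13 genes, of which only Crlf2 and Tslp were tested. Il2, Il4, Il9 and Il13 were listed at 0 in all 9 libraries, and Il21 at 0 in all but 46295 knockout (0.0202 FPKM). Il7r did not exceed 0.0438 FPKM and Il2rb 0.129 FPKM, and Il13ra2, the decoy receptor for IL-13, did not exceed 0.357 FPKM. Crlf2, the receptor chain for TSLP, was at 8.61, 18.0, 6.52 and 14.9 FPKM in knockout 45555, 47298, 45566B and 46295, against 12.4, 13.9, 5.96, 25.8 and 20.7 FPKM in wild-type 45555, 47298, 45566B, 33373 and 33377. These ranges overlap, and over the pairs Crlf2 differed by -0.01 (SE 0.23; limma, adjusted p = 0.994). Tslp, an epithelial cytokine related to IL-7, differed by 0.22 (SE 0.32; limma, adjusted p = 0.844) and, like Il7, was higher in 47298 knockout (4.39 FPKM) than in 47298 wild type (1.98 FPKM).

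Among the kinases and transcription factors that carry these signals, 11 of 14 were lower over the pairs, where 6200 of 12063 genes were. In each pair 6 of the 14 were lower, against 13.3% of all genes, and the median was -0.26 against -0.01 over all genes. Stat6, the target of IL-4 and IL-13, was close to equal within the lines 45555 and 45566B: 53.7, 59.1 and 32.2 FPKM in knockout 45555, 47298 and 45566B, against 52.1, 73.6 and 31.8 FPKM in their wild-type partners. Its fitted difference was -0.08 (SE 0.16, 95% interval -0.53 to 0.36; limma, adjusted p = 0.888). Stat5a (0.29, SE 0.27) and Stat5b (0.13, SE 0.20), which relay IL-7 and IL-15 in lymphocytes, and Tyk2, the kinase of Il13ra1 (0.10, SE 0.26), did not pass either (limma, adjusted p = 0.781, 0.854 and 0.918). Jak3, the kinase bound to Il2rg, was at 0.147, 1.66, 1.09 and 3.37 FPKM in knockout 45555, 47298, 45566B and 46295, against 1.27, 2.69, 1.33, 4.49 and 4.83 FPKM in wild-type 45555, 47298, 45566B, 33373 and 33377. It was lower in 3 of 3 pairs, with a difference of -0.54 (SE 0.27; limma, adjusted p = 0.762). Stat3, a transcription factor activated by many cytokines, differed by -0.92 (SE 0.38) and Shc1, an adaptor of receptor tyrosine kinases, by -0.64 (SE 0.27), each with an adjusted p of 0.762 (limma). Within 45555, 47298 and 45566B, Stat3 differed by -1.76, -0.99 and -0.02 and Shc1 by -0.99, -0.96 and 0.02. Both were thus near equal in 45566B.

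Of 20 known targets of STAT6 10 were tested, with 7 lower and 3 higher over the pairs and 3 lower in each pair (median -0.28). Over all genes 6200 of 12063 were lower and 13.3% were lower in each pair. In 47298, 4 of the 10 tested targets were over 2-fold lower (11.0% of all genes) and 2 over 2-fold higher (8.49%). Higher there were Gata3, a luminal transcription factor, at 36.4 FPKM in knockout and 5.25 FPKM in wild type, and Tgm2, transglutaminase 2. Tgm2 was at 509 FPKM in 47298 knockout and 129.9 FPKM in 47298 wild type. Egr2, a zinc-finger transcription factor, differed by -1.50 (SE 0.38), Il1rn, the IL-1 receptor antagonist, by -3.27 (SE 1.05) and Socs1 by -0.71 (SE 0.26), each at a limma adjusted p of 0.762. Within 45555, 47298 and 45566B, Il1rn differed by -4.01, -5.41 and -0.40 and Egr2 by -1.73, -2.22 and -0.54. In 45566B Egr2 was under 1 FPKM in both states (0.213 in knockout and 0.766 in wild type). Socs1 is also among the feedback genes given below. Of the targets best known from macrophages, Mrc1, Retnla and Pdcd1lg2 stayed under 1 FPKM in every library. Ccl17, a chemokine gene also among the 20 targets, was at 83.3 FPKM in 46295 knockout and at 4.35 FPKM or less elsewhere. Arg1, arginase 1, was at 18.3 FPKM in 45566B knockout and 13.3 in 46295 knockout, against 25.5 in 45566B wild type and 24.4 in 33373, and under 1 FPKM in the other 5 libraries. Chil3, a chitinase-like protein, reached 6.90 FPKM in 33373 and stayed under 1 FPKM elsewhere. Of 13 feedback genes 5 were lower and 8 higher over the pairs, against 6200 and 5863 of all 12063 genes (median 0.07 against -0.01). Socs1, an inhibitor of JAK1 that is itself induced by cytokines, was at 1.67, 0.664, 0.254 and 0.575 FPKM in knockout 45555, 47298, 45566B and 46295, against 2.42, 2.49, 1.05, 2.43 and 5.44 FPKM in wild-type 45555, 47298, 45566B, 33373 and 33377. Knockout was lower in 3 of 3 pairs, as for Il15ra. Socs3 differed by -1.24 (SE 0.65) and the phosphatase gene Ptpn11 by 0.37 (SE 0.21), with limma adjusted p of 0.762 for both. Within 45555, 47298 and 45566B, Socs3 differed by -1.04, -2.90 and 0.23 and Ptpn11 by 0.64, 0.54 and -0.07, so the sign of each turned in 45566B. Cish, a STAT5-induced inhibitor, ranged from 0.160 to 18.7 FPKM in knockout and from 0.535 to 12.2 FPKM in wild type, with a difference of 0.25 (SE 0.34; limma, adjusted p = 0.833).

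Across the 9 libraries the members did not share a pattern. Their pairwise Pearson correlations of log2(FPKM + 1), a description over libraries that share lines, lay between -0.26 (Il15 and Il15ra) and 0.53 (Il4ra and Il15ra), and that of Il4ra with Il13ra1 was 0.00. Searched among 11308 genes, Il4ra was most like Cthrc1 (r = 0.98), Fam207a (0.95) and Ednra, the endothelin receptor A (0.95). Cthrc1, a secreted protein of collagen-producing cells, was at 3.56 FPKM in 47298 knockout and 25.1 FPKM in 47298 wild type. The nearest genes to Il13ra1 were Gpr137 (0.97), Rnf115 (0.95) and Plscr2, a phospholipid scramblase (0.93). Each of them was, like Il13ra1, lowest in 45555 knockout (8.86, 13.2 and 15.0 FPKM). How far these correlations rest on that library was not tested. Those nearest to Il15ra were Ssh2, a cofilin phosphatase (0.92), Ndufs3, a subunit of respiratory complex I (0.91), and Vkorc1, the vitamin K epoxide reductase (0.91). Ndufs3 ranged only from 68.4 to 82.6 FPKM. Il15 was closest to Cyp2d22 (0.90), the chemokine gene Ccl17 (0.90) and Rab24 (0.90). Ccl17 was at 83.3 FPKM in 46295 knockout, the library with the highest Il15, and at 4.35 FPKM or less in the others. Il7 was closest to Sytl1 (0.96), the matrix metalloproteinase gene Mmp3 (0.96) and Arxes2 (0.95), and Mmp3 was at 50.5 FPKM in 47298 knockout and 4.35 FPKM in 47298 wild type.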

How the data were processed

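RNA sequencing was deposited for 9 libraries as FPKM per gene symbol. Per the submitters' processing notes the authors used cutadapt, TopHat2 2.1, Cufflinks 2.2 and Cuffnorm with build mm10, with the scaling option and annotation not given. A smaller deposited table held 4 of the libraries with identical FPKM. Of 24346 genes, 4 rows with repeated names were left out. Positions came from GENCODE vM21 (GRCm38, the mm10 assembly), which held 23284 of the symbols, and promoters from a table of RefSeq windows, in which 4 of the 6 members were matched.

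The test was limma (version 3.58.1, R 4.3.3) applied to log2(FPKM + 1), a scale that understates changes of low genes, with variances that follow the mean, two-sided, adjusted over all genes (Benjamini-Hochberg, threshold 0.05). A gene entered a fit if its mean there was 1 FPKM or more, 12063 in the 3-pair fit and 12198 in the 9-library fit, which had no block although 3 lines enter it in both states. The pairs come from the shared line in the titles, and the libraries of 1 line deviated together (correlations of 0.700 in 45555, 0.400 in 47298 and 0.804 in 45566B). Relative depth was read from the most frequent ratio between the low values of each library and of 45566B wild type.

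The members and lists were chosen with earlier results of these data known, and the search of neighbouring genes was added after their values were seen, as were the mentions of Acta2, Cd68 and other list genes outside the rule. The rule named the members, fixed partners, the 3 genes of each list with the smallest p in the 3-pair fit, and the 3 genes most correlated with each member over the 9 libraries, without unnamed genes, microRNAs or small nucleolar RNAs. A gene that this rule names is not reported here.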

Additional observations from a re-analysis of the deposited data

Results flagged for a closer look

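Il13ra1 in 45555 knockout (1.05 FPKM) lay far below the other 3 knockout libraries: its gap to the nearest of them made up 0.86 of the range of the group on the log2(FPKM + 1) scale, past Dixon's 95% critical value for a group of 4. Il7 in 47298 knockout (3.94 FPKM) lay far above the other 3, with a gap of 0.847 of the range. Chance flags about 1 in 20 groups, and 10 groups of libraries (5 members in 2 states) were examined.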

How the results depend on the processing

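Over the 9 alternatives to the 3-pair fit and the 16 to the 9-library fit, no tested member reached an adjusted p of 0.05. Il15ra stayed lower in all of them, at -1.15 to -0.73 in the 3-pair fit (unadjusted p of 0.0113 to 0.0952, the highest with no replicate block) and -0.94 to -0.52 in the 9-library fit (0.0029 to 0.160). The lowest p of the 9-library fit came with the line as a random replicate block, where Il15ra was at -0.83 (limma, adjusted p = 0.553). The sign turned for Il4ra without line 47298 (0.167; -0.546 to 0.167 leaving out each line) and Il13ra1 without line 45555 (0.035; -1.622 to 0.035) in the 3-pair fit, and for Il15 without 46295 knockout (-0.113; -0.113 to 0.65 leaving out each library) and Il7 with the line as a random replicate block (0.17) in the 9-library fit. Leaving out a library or line in turn moved the count of called genes between 0 and 6 in the 3-pair fit (6 without 47298) and between 0 and 1 in the 9-library fit (1 each without 45555 knockout, 45555 wild type or 45566B knockout); the cause was not tested. The block changed no call. Removing short noncoding RNA genes and rescaling moved the median of all genes from -0.01 to 0.16 in the 3-pair fit and from 0.00 to 0.11 in the 9-library fit, and Il15ra was then at -0.73 and -0.63. In that 3-pair fit Il4ra moved to -0.113 and Il15 to -0.074. Il15 without line 45555 in the 3-pair fit, and Il7 in 2 alternatives of the 9-library fit, missed the filter and gave no value. Depth limits Il2rg, whose values stand a few steps above 0. A p that misses the threshold does not show that a gene did not differ.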
